A study of Mus musculus with 10 samples.

Results

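Helper T cells take on different effector programmes, and 9 genes that set or carry those programmes were read across 10 popliteal lymph node libraries of mice. Tbx21, Ifng, Il12rb2 and Stat4 belong to the Th1 programme, Gata3, Il4 and Maf to the Th2 programme, and Il17a to the Th17 programme, while Batf serves several of them. The genes were chosen by name, and all 9 were found once each among the 54987 genes measured. Of these, 7 had enough signal to be compared between groups, and Il12rb2 and Il17a were too low to judge.

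The node drains the hind paw. The mice were BALB/c males aged 6 to 8 weeks, and the nodes date from day 15. Acu (3 libraries, numbered 4, 6 and 28) received 0.1 ml of complete Freund's adjuvant in the right hind paw and acupuncture at ST36, a point below the knee. AIA (4 libraries, 5, 10, 31 and 38) received the same adjuvant alone, an oil emulsion with killed mycobacteria that causes arthritis, and Control (3 libraries, 15, 16 and 17) received saline. A sham acupuncture group is mentioned in the protocols and was not analysed here. Whether every library comes from its own mouse is not stated, so the p-values cover only the spread among libraries, which may be technical.

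A naive CD4 T cell that meets its antigen reads the cytokines around it. Interleukin 12 acts through a receptor that includes Il12rb2 and through the signal carrier Stat4, and together with T-bet, the product of Tbx21, this leads to interferon gamma from Ifng, which arms macrophages. Interleukin 4 leads to Gata3, the master factor of Th2 cells, which make more interleukin 4, and c-Maf, the product of Maf, acts on the Il4 gene itself. Batf is a leucine zipper factor of the AP-1 family that pairs with Jun proteins and IRF4, is needed for Th17 cells, and also works in follicular helper cells, CD8 T cells and B cells. Outside T cells, Tbx21 marks NK cells, Gata3 marks trophoblast and several epithelia, and Maf is used by macrophages.

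The libraries held between 13269763 reads (AIA 10) and 18926894 reads (Control 15), and between 15116 (AIA 10) and 24411 genes were above 0. T cell content differed far more than depth. The mean log2(FPKM + 1) of 18 T cell genes lay between 5.11 and 5.75 in Acu 6, Acu 28, the AIA libraries and Control 16, but was 1.28 in the library labelled Acu 4, 0.954 in Control 15 and 1.41 in the library labelled Control 17. Cd3e, a chain of the T cell receptor complex, was at most 0.224 FPKM in those 3 libraries and at least 12.6 FPKM in the other 7. The libraries labelled Acu 4 and Control 17 also carried genes of the decidua, the lining of the pregnant uterus, with means of 5.78 and 7.54 for 10 genes against at most 1.25 elsewhere, although all animals are labelled male. Control 15 and Control 16 held adipocyte genes at 9.94 and 7.92 on that scale, against at most 3.98 in the other libraries. All 10 libraries were fitted together first, then without the libraries labelled Acu 4 and Control 17, and then without Control 15 as well, which leaves Control 16 as the only Control library.

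Levels are given in FPKM, reads scaled by gene length and library size. Batf had the highest level of the Th1, Th2 and Th17 regulators in the AIA nodes. It was 2.95, 17.2 and 24.2 FPKM in Acu 4, 6 and 28, and 28.02, 43.9, 25.1 and 33.6 FPKM in AIA 5, 10, 31 and 38. In Control 15, 16 and 17 it was 0.476, 10.1 and 4.22 FPKM. Every AIA library was above every Acu and Control library, though Acu 28 came within 1 FPKM of AIA 31. The read counts behind these values ran from 11 in Control 15 to 803 in AIA 38. Batf lies on chromosome 12 of mm10 at 85686669 to 85709087, plus strand.

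Stat4 was highest in AIA as well. Its values were 0.0649, 6.09 and 5.02 FPKM in Acu 4, 6 and 28, and 11.1, 35.3, 8.13 and 10.1 FPKM in AIA 5, 10, 31 and 38. Control 15, 16 and 17 had 0.141, 4.15 and 0.303 FPKM. Every AIA library was above every Acu and Control library, and AIA 10 stood far above the other AIA libraries, with 1551 reads against 559 to 667. Stat4 (chromosome 1, 51987148 to 52107189, plus strand) shares exons on the same strand with the predicted gene Gm28177, so its reads may be split or lost between them.

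Tbx21 was 0.404, 7.97 and 7.97 FPKM in Acu 4, 6 and 28, and 3.48, 2.84, 6.86 and 11.0 FPKM in AIA 5, 10, 31 and 38. The libraries labelled Control 15, 16 and 17 had 1.05, 2.63 and 0.838 FPKM. The AIA libraries were spread widely, with the widest gap between AIA 31 and AIA 38, and AIA 10 sat just above Control 16. AIA 38 was also the highest library for Ncr1, a receptor of NK cells. Ncr1 was 19.3 FPKM there against 5.05, 5.67 and 7.24 FPKM in AIA 5, 10 and 31. Klrd1, another receptor of NK cells, went the other way. It was 12.4 FPKM in AIA 38 against 30.2, 27.5 and 19.8 FPKM in AIA 5, 10 and 31. The mean log2(FPKM + 1) of 10 NK and innate lymphoid genes was 3.78 in AIA 38. That mean was 3.31, 3.40 and 3.20 in AIA 5, 10 and 31. The part of NK cells in the Tbx21 level was not tested. Tbx21 lies on chromosome 11 at 97098071 to 97115331, minus strand.

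Ifng was low everywhere. It was 0.0485, 0.838 and 1.73 FPKM in Acu 4, 6 and 28, and 1.84, 1.499, 1.04 and 2.50 FPKM in AIA 5, 10, 31 and 38. In Control 15 and 16 it was 0.188 and 0.550 FPKM, and Control 17 had 0 reads, which allows up to 0.151 FPKM by counting error alone. Between 22 and 55 reads lay behind each AIA value. All 4 AIA libraries were above all 3 Control libraries. Ifng (chromosome 10, 118441046 to 118445892, plus strand) overlaps exons of the predicted gene Gm49751 on the same strand, so its reads are uncertain.

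The sequences before the annotated starts are shown for Batf, Stat4, the Th1 cytokine Ifng and its regulator Tbx21. Batf and Stat4 were taken because they passed the test of AIA against Control below in the fit over 8 libraries. Neither of them passed over all 10 libraries. Each sequence is the 250 bases upstream of the start (RefSeq, GRCm38.p6, the C57BL/6J reference and not BALB/c). RefSeq puts the Batf start inside the gene as the deposited coordinates give it, so the end of that window overlaps the gene. For Stat4, which has a second annotated start, the upstream one was taken. Capitals mark matches, on either strand, to TGANTCA (AP-1), TTCNNNGAA (STAT), AGGTGTGA (T-box) or AGATAA, the letters that GATA factors bind.
Batf (chr12:85686470-85686719, plus strand): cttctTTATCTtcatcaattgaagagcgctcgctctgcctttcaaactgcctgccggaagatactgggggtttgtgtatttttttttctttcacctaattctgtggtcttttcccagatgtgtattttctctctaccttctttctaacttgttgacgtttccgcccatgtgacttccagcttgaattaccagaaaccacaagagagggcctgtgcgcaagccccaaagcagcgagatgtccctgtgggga
Stat4 (chr1:51986898-51987147, plus strand): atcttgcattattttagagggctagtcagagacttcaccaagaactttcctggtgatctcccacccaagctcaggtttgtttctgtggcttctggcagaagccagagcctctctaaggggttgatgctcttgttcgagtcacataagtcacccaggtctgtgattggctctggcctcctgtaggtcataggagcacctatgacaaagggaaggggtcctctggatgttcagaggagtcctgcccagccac
Ifng (chr10:118440796-118441045, plus strand): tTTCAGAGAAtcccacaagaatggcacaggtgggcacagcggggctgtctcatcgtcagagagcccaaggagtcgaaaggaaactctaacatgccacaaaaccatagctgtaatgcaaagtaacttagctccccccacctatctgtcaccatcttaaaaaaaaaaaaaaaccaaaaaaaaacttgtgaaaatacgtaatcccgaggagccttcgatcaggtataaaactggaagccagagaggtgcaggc
Tbx21 (chr11:97115332-97115581, minus strand): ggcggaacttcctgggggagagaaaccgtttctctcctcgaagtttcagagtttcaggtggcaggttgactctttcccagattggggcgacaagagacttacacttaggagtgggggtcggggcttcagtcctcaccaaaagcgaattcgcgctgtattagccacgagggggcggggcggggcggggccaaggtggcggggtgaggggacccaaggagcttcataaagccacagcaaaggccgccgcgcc
Batf held the last of these at position -245 from the start, in letters that 9.99% of all 32851 such windows hold at least once. Ifng held a STAT match at position -249, a match found in 7.02% of windows. Stat4 and Tbx21 held none of the 4 motifs, and an AP-1 match was found in 6.75% and a T-box match in 1.12% of all windows. These are matches of letters only, and distal elements were not searched. A window was found for 8 of the 9 members.

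Gata3 did not follow T cell content over all 10 libraries. Outside the libraries labelled Acu 4 and Control 17, its lowest value was in Control 15, which also had almost no T cell genes. Gata3 was 8.45, 2.44 and 2.35 FPKM in Acu 4, 6 and 28, and 1.71, 5.21, 2.89 and 1.82 FPKM in AIA 5, 10, 31 and 38. In Control 15, 16 and 17 it was 0.321, 2.18 and 19.3 FPKM. The highest values were thus in the libraries labelled Acu 4 and Control 17, where T cell genes were almost absent. The libraries labelled Acu 4 and Control 17 also held trophoblast genes, with 11 and 7 of 12 above 1 FPKM against at most 1 of 12 elsewhere. Krt8, a keratin of simple epithelia, was 232 and 10.8 FPKM in them and at most 0.178 FPKM elsewhere. The part of those cells in the Gata3 level was not tested. Gata3 (chromosome 2, 9857078 to 9890034, minus strand) shares exonic sequence with 9230102O04Rik on its own strand and with Gm13256 on the other strand.

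Maf was the most even of the members. It was 15.1, 7.68 and 6.61 FPKM in Acu 4, 6 and 28, and 6.63, 8.21, 5.77 and 7.04 FPKM in AIA 5, 10, 31 and 38. Control 15, 16 and 17 had 8.92, 6.73 and 8.20 FPKM. Apart from the library labelled Acu 4 all values lay between 5.77 and 8.92 FPKM, in libraries with and without T cell genes. The 12 macrophage genes had a mean log2(FPKM + 1) between 3.59 and 5.12 over the 10 libraries, and their part in the Maf level was not tested. Maf (chromosome 8, 115682942 to 115707794, minus strand) overlaps Gm15655 on the other strand.

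Il4 had its lowest values in AIA, at very low levels. It was 1.02, 0.643 and 0.690 FPKM in Acu 4, 6 and 28, and 0.278, 0.872 and 0.384 FPKM in AIA 5, 31 and 38. AIA 10 had 0 reads, which allows up to 0.216 FPKM by counting error alone. That library had the fewest genes above 0 (15116). Ccr6, for example, was 0 FPKM in it and 4.67 to 17.1 FPKM in the other AIA libraries. Leaving AIA 10 out gave a log2 fold change of -0.57 for Il4 in AIA against Control, where all 10 libraries gave -0.74. The libraries labelled Control 15, 16 and 17 had 1.34, 0.897 and 1.59 FPKM, or 27, 17 and 30 reads. The AIA and Control libraries did not overlap, by the narrow gap between AIA 31 (0.872 FPKM) and Control 16 (0.897 FPKM). Mast cells and basophils also make interleukin 4, and 9 of their genes had a mean log2(FPKM + 1) of 0.737 to 1.39 in AIA and 1.23 to 1.46 in Control. Over 8 libraries 1 of 6 tested genes of that list was lower in AIA, where 9.2% of all tested genes were. The higher Il4 values of the libraries labelled Control 15 and 17 stand in libraries with almost no T cell genes. The part of mast cells and basophils in the Il4 level was not tested. Il4 lies on chromosome 11 at 53602982 to 53618669, minus strand.

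Il12rb2 (chromosome 6, 67291318 to 67376188, minus strand) reached 0.5 FPKM in only 2 libraries, AIA 38 (0.961 FPKM, 62 reads) and Acu 6 (0.702 FPKM, 54 reads). It was between 0 and 0.276 FPKM in the other 8, and its exons overlap those of Serbp1 on the other strand. Il17a (chromosome 1, 20730905 to 20734496, plus strand) reached 0.5 FPKM in AIA 5 alone, at 1.63 FPKM and 28 reads. It had 4 and 7 reads in AIA 31 and 38 and 3 and 9 reads in Acu 6 and 28. Acu 4, AIA 10 and all 3 Control libraries had 0 reads, which allows at most 0.226 FPKM in any of them by counting error alone. Both genes were left out of the comparisons as too low to judge.

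**Figure D1:**
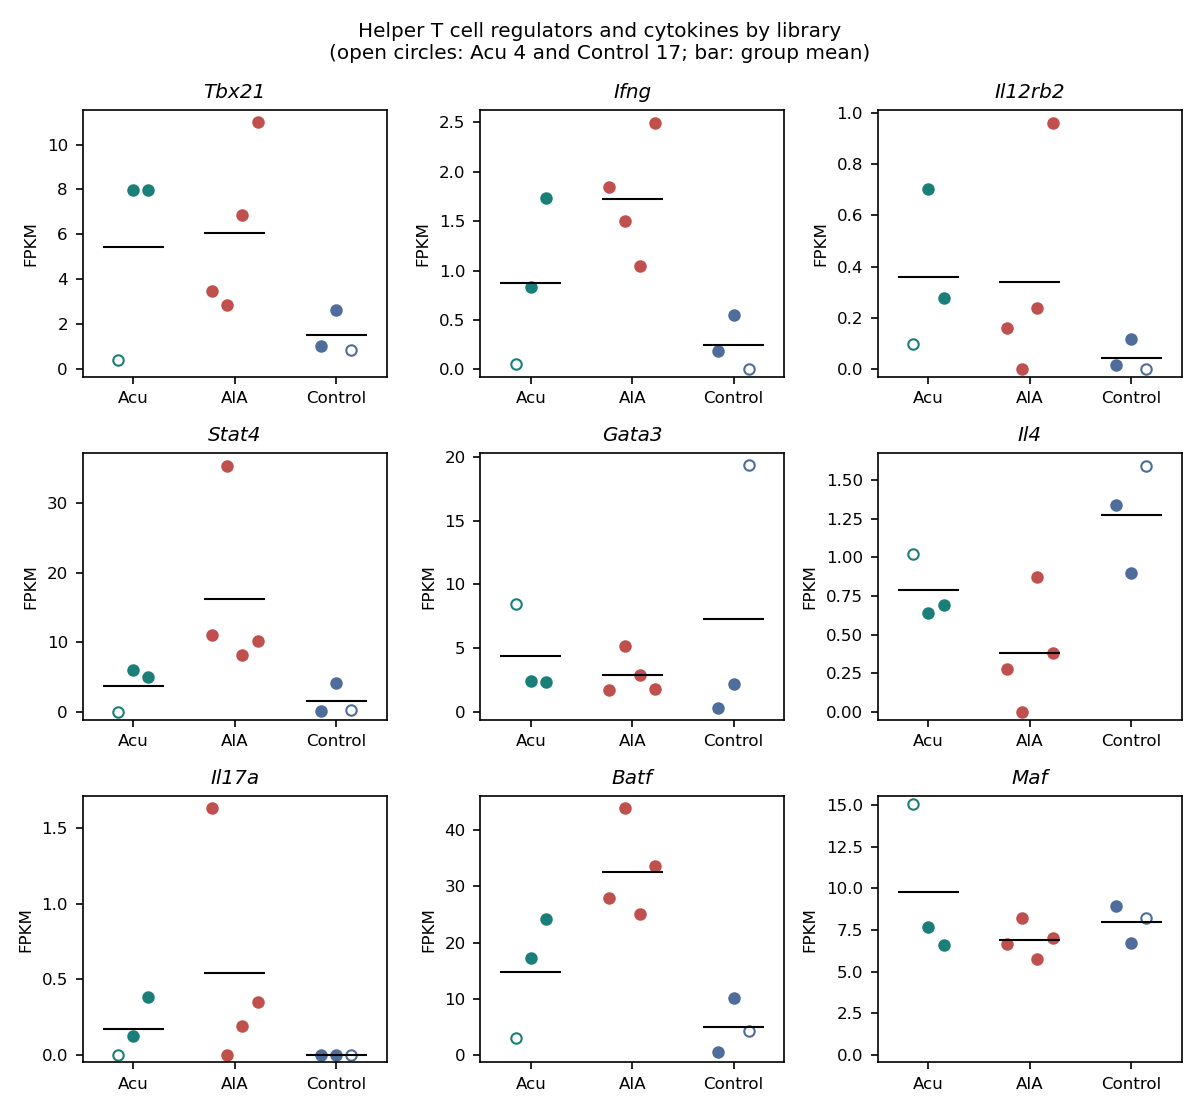
FPKM of the 9 genes in each library (points) by group, with the group mean as a bar and the libraries labelled Acu 4 and Control 17 as open circles. All AIA values of Batf (25.1 to 43.9 FPKM) and Stat4 (8.13 to 35.3 FPKM) lie above all Acu and Control values, while the highest Gata3 values (8.45 and 19.3 FPKM) are in the open circles.

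AIA was set against Control to ask what the adjuvant changed. Over all 10 libraries none of the members passed the threshold of limma's test (an adjusted p under 0.05), against 0.0235% of the 17010 genes tested. Without the adjustment 4 of the 7 tested members were under 0.05 (Batf, Stat4, Ifng and Il4), as were 25% of the 17010 genes. Limma voom on the recovered reads called 0 genes and limma with array weights 3319 (19.5%), 2 of them members. Batf averaged 32.7 ± 8.30 FPKM in AIA (SD, n = 4) and 4.94 ± 4.87 FPKM in Control (SD, n = 3), a log2 fold change of 2.90 (SE 0.75, limma adjusted p = 0.0821). Stat4 averaged 16.2 ± 12.8 FPKM in AIA and 1.53 ± 2.27 FPKM in Control, a log2 fold change of 2.88 (SE 0.80, limma adjusted p = 0.0920). Ifng stood at 1.12 (SE 0.35, limma adjusted p = 0.110), Tbx21 at 1.41 (SE 0.68, limma adjusted p = 0.227) and Il4 at -0.74 (SE 0.26, limma adjusted p = 0.129). Gata3 (-0.26) and Maf (-0.18) had adjusted p-values of 0.862 and 0.741. Leaving out the library labelled Acu 4 alone brought Batf, Stat4 and Ifng past the threshold (limma adjusted p of 0.0220, 0.0252 and 0.0394), in a fit where 10.3% of all genes, 1707 of 16498, passed. Fold changes are on the log2(FPKM + 1) scale, which understates those of low genes such as Ifng and Il4. AIA and Control did not overlap for Batf, Stat4, Tbx21 and Ifng (higher) and Il4 (lower), where 11.4% of tested genes were higher and 13.8% lower without overlap.

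Without the libraries labelled Acu 4 and Control 17, Batf and Stat4 rose in AIA (n = 4) over Control (n = 2). Batf rose by 3.01 on the log2 scale (SE 0.70, limma adjusted p = 0.0272) and Stat4 by 2.58 (SE 0.70, limma adjusted p = 0.0457). These were 2 of the 7 members tested, in a comparison where 4.29% of 16068 genes passed as higher and 9.2% as lower. The T cell genes stood higher in AIA too, 18 of 18 with a median log2 fold change of 2.60, although none of them passed. Proliferation genes rose as well, 10 of 10 with a median of 2.46, and the B cell genes had a median of 2.60 with none passing. The part of these cells in the Batf and Stat4 levels was not tested. Leaving out AIA 10 too, where Stat4 was by far the highest, gave 2.19 for Stat4 (SE 0.57, limma adjusted p = 0.0367), where 21.4% of genes passed. That alternative was added after seeing the data. Ifng stood at 0.97 (limma adjusted p = 0.0725), Tbx21 at 1.21 (limma adjusted p = 0.139), Gata3 at 0.84 (limma adjusted p = 0.253), Il4 at -0.65 (limma adjusted p = 0.170) and Maf at -0.16 (limma adjusted p = 0.728). For Gata3 the sign thus turned once the library labelled Control 17 was out.

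Against Control 16 alone, the one Control library with T cell genes at the level of the AIA nodes, the fold changes were smaller and no member passed, where 3.1% of genes did. Batf stood at 1.53 (SE 0.40, limma adjusted p = 0.110), Stat4 at 1.46 (SE 0.72, limma adjusted p = 0.392), Tbx21 at 0.77 and Ifng at 0.77. The median over the 18 T cell genes was then 0.49. Control 16 also had the highest mean log2(FPKM + 1) of 10 muscle genes of all libraries, 9.07 against 0.908 to 6.41 in AIA. In this fit none of the muscle genes passed (median log2 fold change -5.54), and 7 of 9 adipocyte genes were lower, with a median of -5.70. The part of those tissues in the members' values was not tested. The lone Control library is assumed to vary like the libraries of the other groups. With the mean of the T cell genes as a covariate over all 10 libraries, Batf stood at 1.13 (limma adjusted p = 0.609) and Stat4 at 1.05 (limma adjusted p = 0.666). In bulk tissue, fewer cells of a type and less RNA per cell cannot be told apart.

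**Figure D2:**
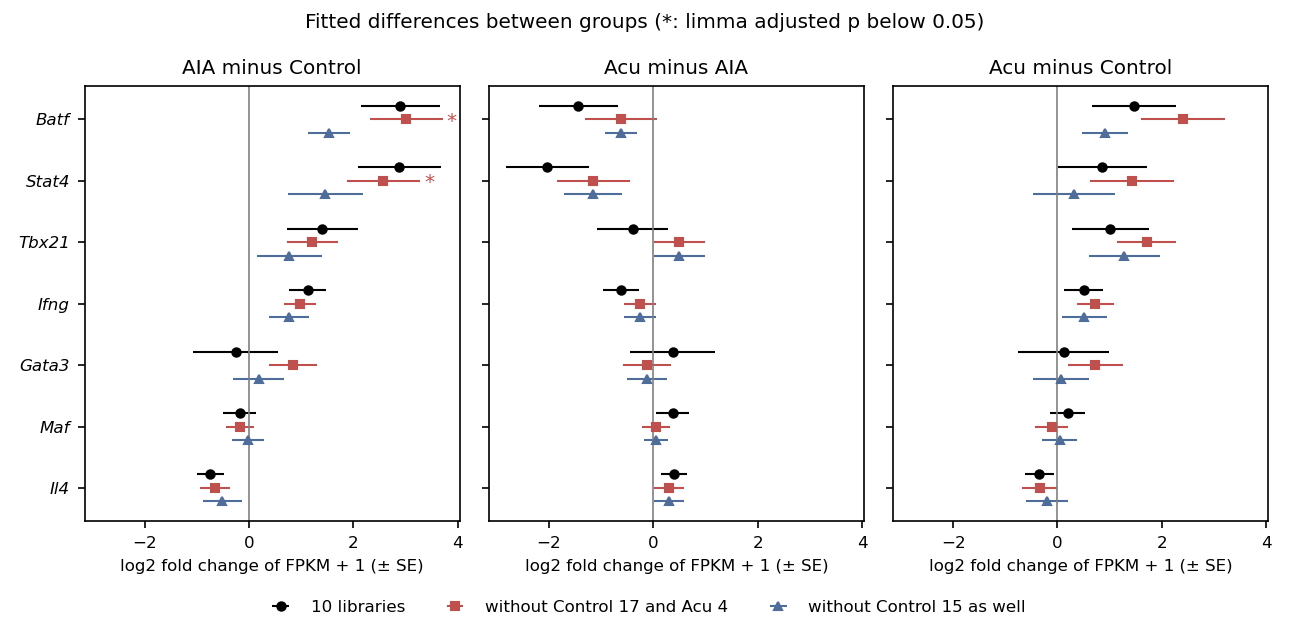
Fitted log2 fold changes of FPKM + 1 (points, with limma's SE as bars) for the 7 members tested, in the 3 comparisons and with 10, 8 and 7 libraries. Stars mark an adjusted p under 0.05, which Batf (3.01) and Stat4 (2.58) reach in AIA minus Control with 8 libraries.

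Acu was set against AIA to ask what acupuncture changed in adjuvant-treated mice, and no member passed. The share of all tested genes that passed was 0% with 10 and with 8 libraries. Batf averaged 14.8 ± 10.8 FPKM in Acu (SD, n = 3) and 32.7 ± 8.30 FPKM in AIA (SD, n = 4), a log2 fold change of -1.43 (SE 0.75, limma adjusted p = 0.746). Stat4 averaged 3.72 ± 3.21 FPKM in Acu and 16.2 ± 12.8 FPKM in AIA, a log2 fold change of -2.03 (SE 0.80, limma adjusted p = 0.746), with an unadjusted p of 0.0294, the only one of the 7 members under 0.05 in this limma fit. Of all genes 4.7% were under 0.05 without the adjustment, voom called 0 and array weights 98. Both genes were lower in all 3 Acu libraries than in any AIA library, where 5.1% of genes were lower without overlap. The library labelled Acu 4 held almost no T cell genes. Without it and the library labelled Control 17, Batf stood at -0.62 (SE 0.70) and Stat4 at -1.15 (SE 0.70), each with limma's adjusted p at 0.984, and 7.7% of genes were lower without overlap. Leaving out AIA 10 as well gave -0.49 for Batf and -0.73 for Stat4.

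The other 5 members did not pass between these groups either. Tbx21 stood at -0.39 (SE 0.68) over 10 libraries and at 0.50 (SE 0.49) over 8. Gata3 stood at 0.37 (SE 0.82) and -0.12 (SE 0.46). Ifng stood at -0.62 (SE 0.35) and -0.25 (SE 0.31), Il4 at 0.40 (SE 0.26) and 0.31 (SE 0.29), and Maf at 0.38 (SE 0.32) and 0.05 (SE 0.27). Every limma adjusted p of these 5 genes was at least 0.746. A p that misses the threshold does not show that the groups are alike.

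Acu was also set against Control, a comparison that shares its libraries with the other comparisons. No member passed over 10 libraries, where 0% of genes did, nor over 8, where 0.871% passed as higher and 3.52% as lower. Without the adjustment no member was under 0.05 over 10 libraries, as 7.5% of genes were, and array weights called 1 member and 2067 genes (12.2%). Batf stood at 1.47 (SE 0.80, limma adjusted p = 0.710) over 10 libraries and at 2.40 (SE 0.80, limma adjusted p = 0.131) over 8. Tbx21 stood at 1.02 (SE 0.73, limma adjusted p = 0.765) and at 1.71 (SE 0.57, limma adjusted p = 0.125). Stat4 stood at 0.86 (SE 0.85) and 1.43 (SE 0.81), and Ifng at 0.51 (SE 0.37) and 0.72 (SE 0.36). Acu and Control overlapped for every member over 10 libraries, where 9.15% of genes did not overlap. Over 8 libraries Batf, Stat4, Tbx21, Ifng and Gata3 were higher in Acu without overlap and Il4 was lower, where 32.4% of genes were higher and 28.6% lower without overlap.

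Since T cell genes varied so widely, each member was also set beside them within its library, as FPKM per 1000 FPKM summed over the 18 T cell genes. In the 7 libraries with T cell genes at the level of a node, Batf was 18.0 and 20.4 in Acu 6 and 28, 17.2 to 30.4 in AIA and 10.7 in Control 16. Acu and AIA thus overlapped on this measure and Control 16 was below both. Stat4 was 6.36 and 4.23 in Acu 6 and 28, 6.16 to 14.8 in AIA and 4.40 in Control 16, so that only AIA stood clear of Control 16. Tbx21 was 8.32 and 6.71 in Acu 6 and 28, 1.19 to 9.94 in AIA and 2.79 in Control 16. Maf was 8.02 and 5.57 in Acu 6 and 28, 3.45 to 6.37 in AIA and 7.14 in Control 16, with every AIA library below Control 16. Gata3 was 2.55 and 1.98 in Acu 6 and 28, 1.05 to 2.19 in AIA and 2.31 in Control 16. With 1 Control library on this measure no test was made. The sum rests largely on Trbc1 and Trbc2, which were 907 and 599 of its 2382 FPKM in AIA 10. Trac (25.9 FPKM), Cd3e (12.6 FPKM) and Lck (21.1 FPKM) were lowest there among the 7 libraries, while Cd3d (155 FPKM) was highest. AIA 10 gave the lowest AIA values of Tbx21 and Maf on this measure and the highest of Stat4.

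**Figure D3:**
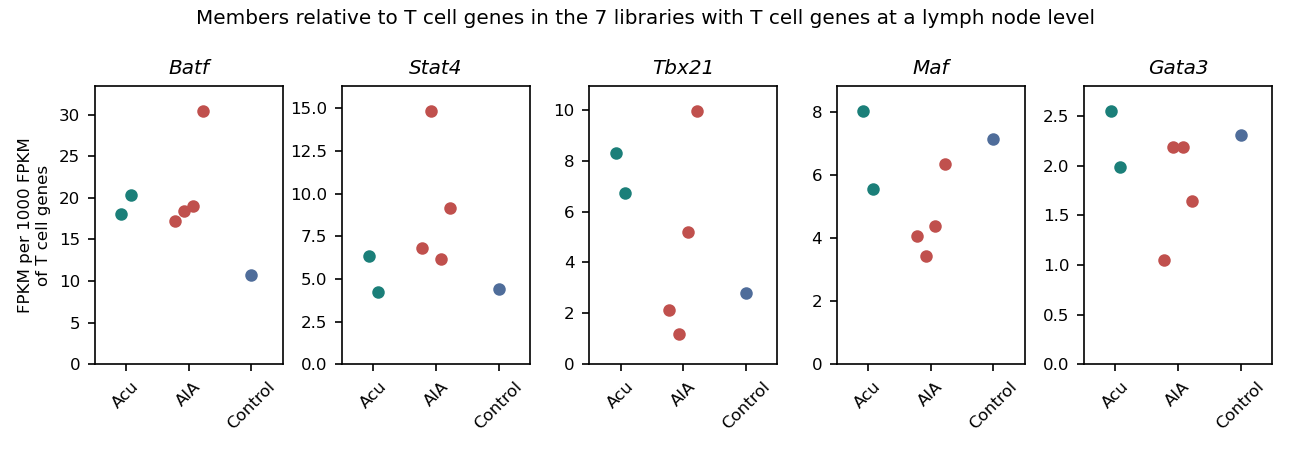
FPKM of 5 members per 1000 FPKM of 18 T cell genes, in the 7 libraries where those genes were at the level of a node. Batf in Control 16 (10.7) lies below Acu (18.0 and 20.4) and AIA (17.2 to 30.4). Maf in Control 16 (7.14) lies above all AIA libraries (3.45 to 6.37). Undivided Maf overlapped (6.73 FPKM in Control 16, 5.77 to 8.21 FPKM in AIA), and the T cell sum was lower in Control 16 than in AIA.

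In the libraries labelled Acu 4 and Control 17, by contrast, Gata3 reached 111 and 179 per 1000 FPKM of T cell genes, and Maf 197 and 75.9. In Control 15 Maf reached 334 and Gata3 12.0. Batf in those 3 libraries was 38.6, 39.0 and 17.8. The ratio of Tbx21 to Gata3, 2 factors often read against each other as Th1 over Th2, was 0.0478, 3.26 and 3.38 in Acu 4, 6 and 28, and 2.03, 0.544, 2.37 and 6.04 in AIA 5, 10, 31 and 38. In Control 15, 16 and 17 it was 3.27, 1.21 and 0.0433. AIA 10 and AIA 38 held the lowest and the highest ratio outside the libraries labelled Acu 4 and Control 17, so the ratio did not separate the groups.

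**Figure D4:**
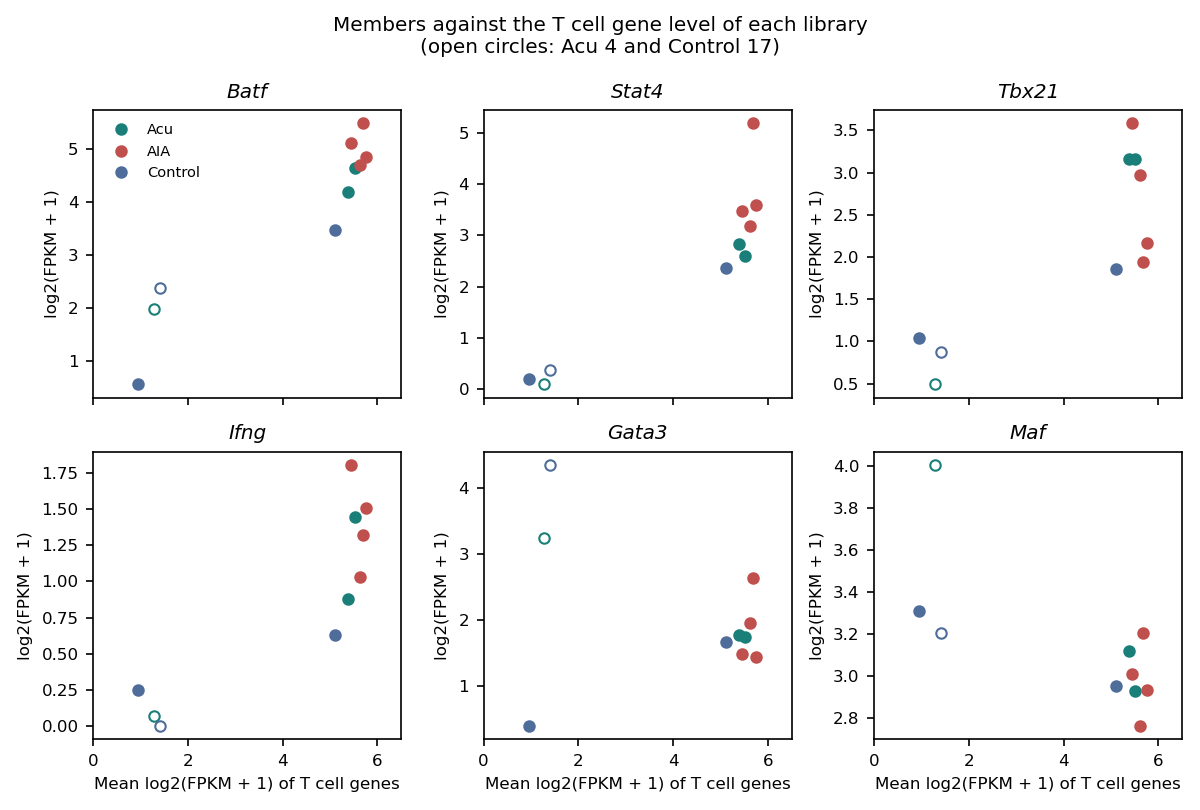
Log2(FPKM + 1) of 6 members against the mean log2(FPKM + 1) of 18 T cell genes in each library, coloured by group, with the libraries labelled Acu 4 and Control 17 as open circles. Batf and Stat4 are low in the 3 libraries with T cell means of 0.954 to 1.41 and higher in the 7 with means of 5.11 to 5.75, while Gata3 and Maf are highest in an open circle.

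The partners of each programme were followed as lists in the fit over 8 libraries, AIA against Control. The counts of all lists below stand beside 4.29% of 16068 genes that passed as higher and 9.2% as lower. Of 18 Th1 partners 17 were tested and 4 rose, with a median log2 fold change of 1.37 against -0.01 over all genes tested. Among them were the checkpoint Havcr2 (1.83, limma adjusted p = 0.0187) and Eomes, a T-box factor of killer cells (1.52, limma adjusted p = 0.0341). Over 10 libraries Havcr2 stood at -0.01 and Eomes at 0.50, with the highest level of each in the library labelled Control 17 (80.4 and 14.1 FPKM). Of 7 cytokines that act upstream, 6 were tested and 2 rose, Il18 (2.92, limma adjusted p = 0.0129) and Ebi3, a subunit of cytokines related to interleukin 12 (1.64, limma adjusted p = 0.0239). Il12b, a subunit of interleukin 12 itself, stood at 0.99 (limma adjusted p = 0.290). Of 13 interferon gamma receptors and targets 12 were tested and 6 rose, with a median of 1.68, such as the GTPase Iigp1 (2.30), the chemokine Cxcl9 (2.40) and the GTPase Gbp3 (1.43). NK and innate lymphoid genes moved with them, with 3 of 8 tested genes higher.

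Of 19 Th2 partners 13 were tested and 2 rose, with a median of 0.68. They were Il10, which restrains inflammation (1.74, limma adjusted p = 0.0257), and the alarmin Il33 (2.42, limma adjusted p = 0.0171), which is made by stromal cells rather than T cells. Il5 and Il13, the other cytokines of Th2 cells, were at most 0.12 FPKM in any library. Of 17 Th17 partners 11 were tested, with 1 higher and 1 lower and a median of 0.34. Il1b rose by 3.88 (limma adjusted p = 0.0033).

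A list of 12 genes was set beside Batf and Maf as partners. It held leucine zipper factors such as those of AP-1, IRF factors and, from another family, Ikzf1 and Ikzf3. All were tested and 2 rose, with a median of 1.26. Irf4, the partner of Batf on DNA, rose by 2.09 (SE 0.39, limma adjusted p = 0.0129), to 23.6 to 35.6 FPKM in AIA against 4.53 and 7.80 FPKM in Control 15 and 16. It was 43.8 and 20.3 FPKM in Acu 6 and 28. Batf2, a relative induced by interferon, rose by 1.06 (limma adjusted p = 0.0461). Plasma cell genes, among them Jchain, moved alongside, with 6 of 9 higher, and IRF4 is a factor of plasma cells too. Their part in the Irf4 rise was not tested. Over all 10 libraries no gene of these 6 lists passed in this comparison. When Control 15 was left out as well, the counts higher were 0 for the Th1 partners, the upstream cytokines, the interferon gamma genes, the Th2 partners and the Batf and Maf partners, while the Th17 partners again had 1 higher, Il1b, and 1 lower. Between Acu and AIA no gene of these 6 lists passed with 10 or with 8 libraries. Against Control over 8 libraries Irf4 (2.14) and Il1b (2.92) were among the genes of these lists that were higher in Acu.

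The genes most like each member were ranked by Pearson's r of log2(FPKM + 1) over the 8 libraries, among 11561 genes. For Batf these were Art2a-ps, Marcksl1 and Susd3 (r of 0.995, 0.995 and 0.993), and for Stat4 Mak16, Runx2 and Zfp296 (0.991, 0.990 and 0.989). For Tbx21 they were Ppp6r1, Mmp25 and Elmo1 (0.988, 0.986 and 0.982), and for Ifng Herc6, Ifi204 and Batf2 (0.973, 0.964 and 0.959). For Gata3 they were Mllt11, Trmt6 and Tinf2 (0.978, 0.974 and 0.963), for Maf Afg3l1, Sar1a and Trappc4 (0.964, 0.950 and 0.946), and for Il4 Nudt6, Nrn1 and Abcc1 (0.965, 0.960 and 0.959). Of these 8 libraries only Control 15 had almost no T cell genes, and r over so few points can rest on a single library. Values this high describe these libraries only.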

How the data were processed

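RNA of 10 popliteal lymph node libraries was sequenced, and nothing read here states whether reads were counted by strand. Values were deposited as FPKM, which is fragments scaled by gene length and by library size, for 54987 genes, with HISAT2 2.0.5, StringTie 1.3.3b, featureCounts 1.5.0-p3 and the mm10 build named in the submitters' processing notes. Multiplied by gene length, FPKM values fell on whole steps of 1 read in every library (tolerance 0.01 of a step), which gave the reads behind a value. Those reads and the limits for 0 reads (3 counts) cover counting error only. The deposited FPKM were already scaled between libraries, as a median-of-ratios scaling left them unchanged.

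Genes at 0.5 FPKM or more in at least 3 libraries were tested with limma 3.58.1 in R 4.3.3 on log2(FPKM + 1), with a mean-variance trend, the 3 groups in 1 fit, and Benjamini-Hochberg adjustment over all genes tested (threshold 0.05). A gene was called too low to judge when it failed that filter or when no group averaged 10 reads. The code was tested on simulated data. Tables and figures were made with Python 3.11.15. The members and the gene lists were chosen with earlier results of these data known. From each list the text names up to 3 genes with the smallest p in AIA against Control over 8 libraries, genes that mark a cell source, and Eomes, Il5 and Il13, which were added after their values were seen. Some genes of the lists that the rule would name are not reported here, and stay in the counts. Alternatives changed the pseudocount, filter, scaling, test, weights, covariate and libraries.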

Additional observations from a re-analysis of the deposited data

Results flagged for a closer look

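Stat4 in AIA 10 stood apart from the other AIA libraries, at 35.3 FPKM against 8.13 to 11.1 FPKM. The gap to its nearest neighbour was 0.891 of the range of the group, above the critical value of Dixon's test for 4 samples. Chance alone marks about 1 in 20 groups. AIA 10 also had the fewest reads and the fewest genes above 0 of the 10 libraries, and their part in the Stat4 value was not tested.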

How the results depend on the processing

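In AIA against Control, 0 members passed over all 10 libraries. There were 2 with array weights, 1 with only these 2 groups in the fit (785 of 15804 genes passed), 2 without the libraries labelled Acu 4 and Control 17, 2 when AIA 10 was left out with them (3386 of 15843 genes), and 0 to 3 when 1 library was left out at a time (0 to 1707 genes). In Acu against Control array weights gave 1 member, and leaving out 1 library gave 0 in both comparisons with Acu. Genes past the threshold in AIA against Control numbered 4 over 10 libraries, 0 with a pseudocount of 0.1 and with voom, 60 with a filter of 1 FPKM, 3319 with array weights and 2167 without the libraries labelled Acu 4 and Control 17, and the causes were not tested. Signs turned for values that never passed. Gata3 in AIA against Control (-0.26) stood at 0.039 with the smaller pseudocount, 0.24 with voom, 0.43 with array weights, 0.84 without the libraries labelled Acu 4 and Control 17, 0.18 without Control 15 too, 0.63 without AIA 10 in its place, 0.45 with T cell genes as covariate, and -1.13 to 0.85 with 1 library out. Maf stood at 0.33 with the covariate. In Acu against AIA, Tbx21 (-0.39) stood at 0.19 with array weights, 0.50 over 8 and over 7 libraries, 0.28 with the covariate, 0.24 without AIA 10 too, and -0.84 to 0.50 with 1 library out. Gata3 there stood at -0.011, -0.12 and -0.11 with array weights, 8 and 7 libraries, and -0.12 to 0.62 with 1 library out, and Il4 at -0.0070 with array weights. In Acu against Control, Stat4 stood at -0.060 with the covariate, Maf at -0.089 with array weights, -0.11 over 8 libraries, -0.058 without AIA 10 too and -0.14 to 0.41 with 1 library out, and Gata3 at -0.76 to 1.23. No paired analysis was possible because the groups share no replicate numbers. Low reads limit Ifng and Il4, and the 8-library Control group has 2 libraries.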

Other observations

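Marker genes of other cell types in the same nodes also differed between AIA and Control over 8 libraries. In that fit 4.29% of 16068 genes passed as higher and 9.2% as lower. All 9 adipocyte genes tested were lower in AIA, with a median log2 fold change of -6.73, and 2 of 10 muscle genes were lower. Of 8 neutrophil genes 3 were higher, and of 12 macrophage genes 3 were higher and 1 was lower. Of the epithelial genes 4 were tested and 1 was higher, and none of 3 tested decidual genes passed. Of the trophoblast list only Gata2 was tested. It was lower, at 0 to 0.545 FPKM in AIA against 6.28 and 3.03 FPKM in Control 15 and 16. The other genes of that list were too low to test here, so this count shows no change in trophoblast cells.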
